A study of Mus musculus with 8 samples.

Results

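The 10 genes followed here mark mast cells, basophils and eosinophils, and were measured in leukemic mouse bone marrow cells with and without Ikzf2: Ms4a2, Fcer1a, Cpa3, Hdc, Mcpt8, Prss34, Prg2, Epx, Il1rl1 and Gzmb. They were chosen by symbol, and 10 of 10 were found among the 24421 genes counted. RNA-seq had been run on C57BL/6 marrow cells transformed by MLL-AF9, a fusion oncogene of acute leukemia, and sorted for a high level of c-KIT, the receptor of stem cell factor, after thawing. The KO group (2 libraries) was Ikzf2 KO, from Ikzf2Δ/Δ mice, and the WT group (2 libraries) was Ikzf2 WT, from Ikzf2f/f mice, whose floxed alleles are intact. Both groups carried MLL-AF9. The labels give neither the age of the mice nor the Cre driver, and do not state whether each replicate was a mouse of its own. The p-values below thus measure only how far these libraries spread, technical spread included. Sex-linked genes, given below, set the 2 KO libraries apart as different mice and do not settle this for WT.

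Mast cells and basophils carry the high-affinity IgE receptor, FceRI. When antigen crosslinks IgE on it, they release granules that hold histamine and proteases. Eosinophils store basic proteins and a peroxidase in their granules and depend on IL-5. The lineages branch from GATA2-expressing myeloid progenitors, a compartment close to the cells that MLL fusions transform, and Helios, the product of Ikzf2, is an Ikaros family transcription factor.

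The sequence before the start site is shown for the tested pair whose KO libraries both lay above WT (Ms4a2 and Hdc) and for 3 whose groups overlapped (Cpa3, Mcpt8 and Epx). Each line gives the 250 bases before a RefSeq start in build GRCm38.p6, 5′ to 3′ on the gene's strand. AGATAA and TGATAA, letters bound by GATA factors, are in capitals on either strand (TTATCT is AGATAA on the other strand).
Ms4a2, chr19:11623720-11623969, minus strand: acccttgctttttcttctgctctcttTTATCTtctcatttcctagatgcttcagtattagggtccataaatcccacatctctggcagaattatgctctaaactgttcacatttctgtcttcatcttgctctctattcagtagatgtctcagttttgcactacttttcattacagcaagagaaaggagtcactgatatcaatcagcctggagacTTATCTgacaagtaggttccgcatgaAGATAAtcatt
Hdc, chr2:126618679-126618928, minus strand: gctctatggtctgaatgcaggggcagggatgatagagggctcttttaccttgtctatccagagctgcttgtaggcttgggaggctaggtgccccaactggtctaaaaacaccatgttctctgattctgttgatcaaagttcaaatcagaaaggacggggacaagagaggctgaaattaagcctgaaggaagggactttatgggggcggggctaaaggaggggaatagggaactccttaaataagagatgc
Cpa3, chr3:20242182-20242431, minus strand: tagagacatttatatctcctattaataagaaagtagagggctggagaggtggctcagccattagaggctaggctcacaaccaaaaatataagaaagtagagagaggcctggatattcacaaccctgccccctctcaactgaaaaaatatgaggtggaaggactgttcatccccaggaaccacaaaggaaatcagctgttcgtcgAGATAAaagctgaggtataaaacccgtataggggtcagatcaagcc
Mcpt8, chr14:56085198-56085447, minus strand: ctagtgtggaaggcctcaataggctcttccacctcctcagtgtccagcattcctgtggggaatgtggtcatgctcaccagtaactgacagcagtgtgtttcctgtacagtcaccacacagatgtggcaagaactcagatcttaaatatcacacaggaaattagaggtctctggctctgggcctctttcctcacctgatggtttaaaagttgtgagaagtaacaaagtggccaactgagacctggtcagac
Epx, chr11:87875537-87875786, minus strand: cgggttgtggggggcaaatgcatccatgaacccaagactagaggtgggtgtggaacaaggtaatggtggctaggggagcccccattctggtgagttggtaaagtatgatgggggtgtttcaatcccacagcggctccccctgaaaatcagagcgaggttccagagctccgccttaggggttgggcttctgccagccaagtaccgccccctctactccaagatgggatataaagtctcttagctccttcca
RefSeq start sites were at hand for 9 of the 10 genes, with 2 for Il1rl1, and none was given for Prg2. Some of these starts lay inside the gene span printed below. The windows of Hdc, Mcpt8 and both of Il1rl1 fell wholly within it, and those of Ms4a2, Cpa3 and Fcer1a partly. The GATA letters lay in 6 of these 10 windows, those of Ms4a2, Cpa3, Fcer1a, Prss34 and both of Il1rl1, and in 16.6% of 32851 RefSeq windows of the same length. Ms4a2 held 3 copies, and the copy in Cpa3 began 46 bases before the start. The windows of Hdc, Mcpt8, Epx and Gzmb held none. TGTGGT, letters bound by RUNX factors, lay in 5 of the 10 windows and in 14.0% of all, TTGCNNAA, a C/EBP form, in 2 and 9.56%, and the E-box forms CACGTG and CATGTG in 2 and 17.6%, each searched on both strands. These are matches of letters and not sites of binding.

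Gene counts came to 16006081 and 18017545 in the KO libraries and to 19286090 and 18711837 in the WT libraries, so that 3 counts, the most that a count of 0 allows, equalled 0.15 to 0.186 CPM (counts scaled to a common library size with TMM factors). Ikzf2 (chromosome 1, 69531207 to 69687351) had 10.9 and 26.5 CPM in KO against 283 and 271 CPM in WT (log2 fold change -3.89, SE 0.48; adjusted p = 1.13e-13 by DESeq2 and 0.332 by edgeR). Kit, the sorted receptor, was at 236 and 376 CPM in KO and 216 and 330 CPM in WT. KO replicate 1 stood apart in sex-linked genes. Xist was at 833 CPM there, at 0.352 CPM in the other KO library and at 0.60 and 0.477 CPM in WT. Ddx3y, on the Y chromosome, was at 0.0619 CPM there, at 70.1 CPM in the other KO library and at 110 and 102 CPM in WT. These are levels of female cells in KO replicate 1 and of male cells in the other libraries. Sex thus differed within KO and between the groups, and its part in the values was not tested. Values without KO replicate 1 are given for some genes only, and where none is given it does not mean that the value held. Without that library the edgeR log2 fold change of Ikzf2 was -3.39.

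No change in any of the 10 genes passed the test between KO and WT. Of the 7 that passed the filter on low counts, 0 had an adjusted p under 0.05 by edgeR's quasi-likelihood test, as for 0.00% of the 12623 genes tested, and 0 of 7 had an unadjusted p under 0.05, against 7.67% of all genes. DESeq2 called 0 of the 10, against 2.11% of the 16651 genes with a count. Ms4a2 and Hdc, 2 of the 7, had both KO libraries above both WT libraries (18.1% of all tested genes), and 0 had both below (19.1%), so that 37.2% of all tested genes did not overlap in either direction. The median log2 fold change of the 7 was 0.62, with 5 above 0 and 2 below (49.5% of all tested genes were above 0), and that of all tested genes was -0.0043. The members' median was 0.32 and 1.13 without KO replicates 1 and 2 and 1.03 and 1.14 without WT replicates 1 and 2. The filter was rerun in each of these fits, so these medians cover 7, 9, 8 and 9 members and are not all of the same genes. Fold changes are given as KO over WT with the standard error (SE) from edgeR, n = 2 libraries in each group.

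**Figure D1:**
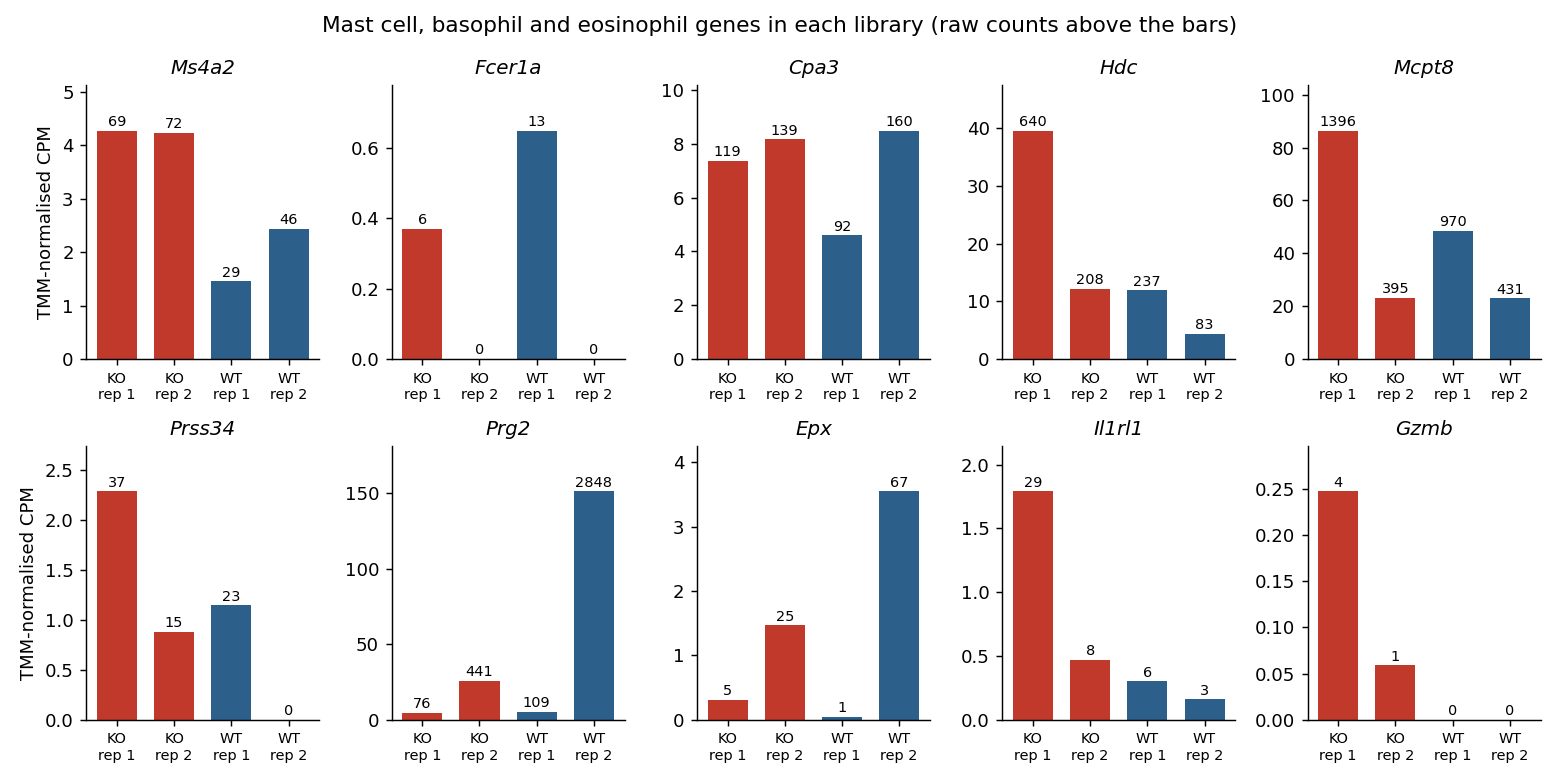
Level of each of the 10 genes in each library, as TMM-normalised CPM on an axis of its own per gene, with the raw count above the bar and the KO libraries (red) left of the WT libraries (blue). Ms4a2 and Hdc are higher in both KO libraries (Hdc not with library sizes alone as scaling), while Prg2 and Epx are highest in WT replicate 2 and Mcpt8 and Prss34 in KO replicate 1.

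Among genes of the IgE receptor, Ms4a2, the beta chain that amplifies its signal (chromosome 19, 11615517 to 11623790), had 69 and 72 counts in the KO libraries, or 4.27 and 4.23 CPM, against 29 and 46 counts in the WT libraries, or 1.45 and 2.44 CPM. The KO libraries were nearly equal and both stood above WT. The log2 fold change was 1.13 (SE 0.58), a 2.18-fold higher level, with an adjusted p of 0.764 by edgeR (unadjusted p = 0.108), and it ran from 0.80 to 1.56 with each library left out. Fcer1a, the IgE-binding alpha chain (chromosome 1, 173221269 to 173227232), had 6 and 0 counts in KO and 13 and 0 counts in WT, too few to be tested. It was seen in replicate 1 of both groups, at 0.371 CPM in KO and 0.65 CPM in WT, and its count of 0 in replicate 2 allows up to 0.176 CPM in KO and 0.159 CPM in WT. The beta chain did not go with the alpha chain across libraries. KO replicate 2 had Ms4a2 at 4.23 CPM, nearly the level of KO replicate 1, and no count of Fcer1a. WT replicate 1, with the most counts of Fcer1a, had the lowest level of Ms4a2. Fcer1g, the gamma chain that FceRI shares with other Fc receptors of myeloid cells, had 435 and 293 CPM in KO and 312 and 291 CPM in WT (log2 fold change 0.27, SE 0.27), and was present in every library whether or not Fcer1a was.

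Cpa3, the carboxypeptidase A of mast cell granules, which early basophil and mast cell progenitors also express (chromosome 3, 20215616 to 20242209), had 119 and 139 counts in KO and 92 and 160 counts in WT. That is 7.36 and 8.16 CPM in KO against 4.60 and 8.49 CPM in WT, and the groups overlap. Its log2 fold change was 0.25 (SE 0.49, adjusted p = 0.968 by edgeR) and turned to -0.13 without WT replicate 1, the library with the lowest level. The protease genes of mature mast cells were at or near 0. Cma1, a chymase, had 7 counts in KO replicate 1 and 0 in the other 3 libraries. Mcpt2 and the tryptase Tpsb2 had 2 counts each in KO replicate 1, Mcpt9 had 2 in KO replicate 2, Tpsg1 had 1 in WT replicate 1, and each had 0 elsewhere. Mcpt1, Mcpt4 and Cma2 had no count in any library, and neither did the mast cell receptors Mrgprb1 and Mrgprb2. Apart from Cma1 in KO replicate 1, these protease genes thus had at most 2 counts in a library, while Cpa3 had 92 or more.

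Hdc, which makes histamine from histidine (chromosome 2, 126593659 to 126624025), had 640 and 208 counts in KO and 237 and 83 counts in WT, or 39.6 and 12.2 CPM in KO against 11.9 and 4.40 CPM in WT. Replicate 1 was the higher library in each group, and KO replicate 2 lay just above WT replicate 1. With library sizes alone as scaling these groups overlapped. The log2 fold change of 1.67 (SE 0.75), 3.18-fold, was the highest of the 7, with an adjusted p of 0.706 by edgeR (unadjusted p = 0.0726) and of 0.309 by DESeq2. Leaving out KO replicate 1 gave 0.59 and KO replicate 2 gave 2.28, while leaving out WT replicate 1 gave 2.55 and WT replicate 2 gave 1.14. DESeq2 called Hdc without WT replicate 1 (adjusted p = 0.049) and in none of the other 3 fits that left a library out. Slc18a2, which loads histamine into granules and was singled out after its values were seen, had 9.77 and 9.63 CPM in KO against 3.90 and 3.93 CPM in WT (log2 fold change 1.31, SE 0.43, adjusted p = 0.556 by edgeR and 0.108 by DESeq2). Its replicates were close to each other in both groups, unlike those of Hdc.

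Of the basophil proteases, Mcpt8 (chromosome 14, 56082163 to 56085499) had 1396 and 395 counts in KO and 970 and 431 counts in WT, or 86.4 and 23.2 CPM in KO against 48.5 and 22.9 CPM in WT. The replicate 2 libraries of both groups were nearly equal, and the replicate 1 libraries were higher. The KO replicates differed 3.72-fold, a gap that 4.63% of tested genes exceeded, and the WT replicates 2.12-fold. The log2 fold change was 0.62 (SE 0.70, adjusted p = 0.921 by edgeR), and it turned to -0.62 without KO replicate 1. Prss34, a tryptase-like protease of basophils (chromosome 17, 25298394 to 25300168), had 37 and 15 counts in KO and 23 and 0 counts in WT, or 2.29 and 0.881 CPM in KO against 1.15 and 0 CPM in WT. Its count of 0 in WT replicate 2 allows up to 0.159 CPM. The log2 fold change was 1.44 (SE 1.54, adjusted p = 0.915 by edgeR). Leaving out KO replicate 1 gave 0.60, KO replicate 2 gave 1.97 and WT replicate 2 gave 0.47, and without WT replicate 1 the group left had no count, so that no fold is given.

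The ratio of Hdc to Mcpt8 counts, 1 of several such ratios looked at, differed between the KO and WT libraries. No scaling of the libraries touches this measure. Hdc made up 31.4% (95% exact binomial interval 29.4 to 33.5) and 34.5% (30.7 to 38.4) of the counts of both genes in KO replicates 1 and 2, against 19.6% (17.4 to 22.0) and 16.1% (13.1 to 19.6) in WT replicates 1 and 2. The intervals, which cover counting error only, overlap within each genotype and not between them. With 2 libraries in each group the smallest 2-sided p of an exact permutation test is 0.333, so the difference was not tested. How many other pairs of genes separate in this way was not counted, and 37.2% of single tested genes did not overlap between the groups. Prss34 made up 2.58% (1.82 to 3.54) and 3.66% (2.06 to 5.96) of the counts of Mcpt8 and Prss34 in KO, and 2.32% (1.47 to 3.46) and 0% (up to 0.852) in WT. Prss34 kept close to Mcpt8 in 3 libraries and was missing in WT replicate 2, where Mcpt8 had 431 counts. In this pair too both KO shares lay above both WT shares, as they did for Epx in the counts of Prg2 and Epx. Epx made up 6.17% (2.03 to 13.8) and 5.36% (3.5 to 7.82) in KO, and 0.909% (0.023 to 4.96) and 2.3% (1.79 to 2.91) in WT. Intervals of both pairs overlapped in part between the genotypes. Fcer1a made up 8% and 0% of the counts of Ms4a2 and Fcer1a in KO, and 31% and 0% in WT.

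**Figure D2:**
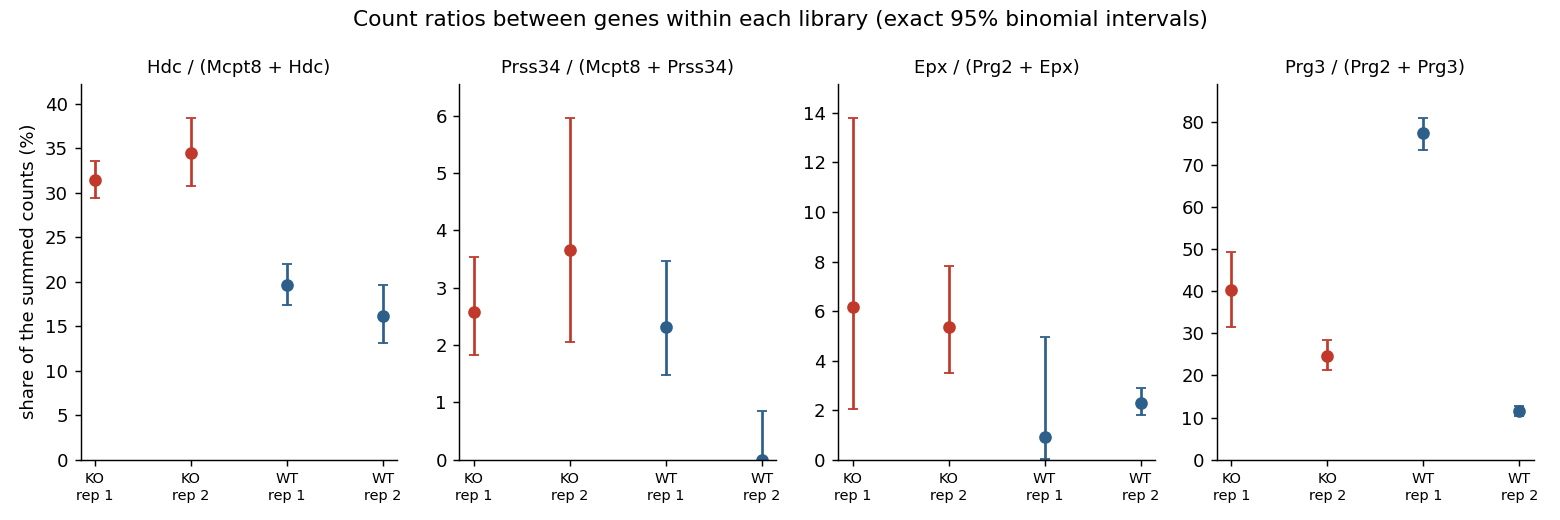
Share of the second gene in the summed raw counts of 2 genes, in percent, for each library (KO red, left; WT blue, right), with exact 95% binomial intervals that cover counting error only. The share of Hdc is 31.4% and 34.5% in KO and 19.6% and 16.1% in WT. The share of Prg3 is 40.2% and 24.7% in KO and 77.4% and 11.5% in WT, with the interval of each library apart from the others.

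The eosinophil granule genes followed another library order. Prg2, the major basic protein (chromosome 2, 84980461 to 84983632), had 76 and 441 counts in KO and 109 and 2848 counts in WT, or 4.70 and 25.9 CPM in KO against 5.45 and 151 CPM in WT. WT replicate 2 stood far above the other 3 libraries, and the WT replicates differed 27.7-fold, a gap that 0.325% of tested genes exceeded. The log2 fold change was -2.35 (SE 1.57, adjusted p = 0.845 by edgeR). It turned to 1.50 without WT replicate 2, was -1.59 and -4.05 without KO replicates 1 and 2, and was -3.30 without WT replicate 1, the setting in which DESeq2 called Prg2 (adjusted p = 0.00232). Epx, the eosinophil peroxidase (chromosome 11, 87863997 to 87875536), had 5 and 25 counts in KO and 1 and 67 counts in WT, or 0.309 and 1.47 CPM in KO against 0.05 and 3.55 CPM in WT. As for Prg2, replicate 2 was the higher library in each group and WT replicate 2 the highest of all. The log2 fold change of -1.01 (SE 1.66, adjusted p = 0.956 by edgeR) turned to 3.99 without WT replicate 2, where the WT library left had 1 count. It was -0.29 and -2.51 without KO replicates 1 and 2 and -1.98 without WT replicate 1.

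Prg3, a paralogue next to Prg2 that was singled out after its values were seen, was about as high in WT replicate 1 as in WT replicate 2, where Prg2 differed 27.7-fold. It had 3.16 and 8.51 CPM in KO against 18.7 and 19.6 CPM in WT (log2 fold change -1.71, SE 0.55, adjusted p = 0.545 by edgeR and 0.10 by DESeq2), and both KO libraries lay below both WT libraries. Prg3 made up 40.2% (31.6 to 49.2) and 24.7% (21.3 to 28.4) of the counts of Prg2 and Prg3 in KO, and 77.4% (73.4 to 81.1) and 11.5% (10.4 to 12.7) in WT. Reads that match both paralogues could have been split or lost in counting. Il5ra, the IL-5 receptor chain of eosinophils, had 8 counts in WT replicate 2, the library highest in Prg2 and Epx, and 0 in the other 3. Ccr3, the eotaxin receptor, had 1 count in all, and the ribonuclease genes Ear2, Ear6 and Ear10 had none.

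Il1rl1, the IL-33 receptor ST2 of mast cells, basophils and type 2 lymphoid cells (chromosome 1, 40404864 to 40465418), had 29 and 8 counts in KO and 6 and 3 counts in WT, or 1.79 and 0.47 CPM in KO against 0.30 and 0.159 CPM in WT. It was higher in both KO libraries but did not pass the filter. With no filter its log2 fold change was 2.27 (edgeR adjusted p = 0.85). With a library left out, the DESeq2 log2 fold change ran between 1.04, without KO replicate 1, and 2.97, without KO replicate 2. Gzmb, granzyme B, a protease of cytotoxic lymphocytes that mast cells and basophils can also make (chromosome 14, 56258836 to 56262334), had 4 and 1 counts in KO and 0 and 0 counts in WT. These levels are at or near the floor, and no fold is given. Mcpt8 and Gzmb belong to a family of related proteases on chromosome 14, so reads that match several of them make these counts uncertain. KO replicate 1, the highest library for both, also held most counts of 2 genes singled out after their values were seen: Klrd1, an NK cell receptor chain, had 68 counts there and 0 or 1 in each of the other 3, and Hpgds, the hematopoietic prostaglandin D synthase, had 47 there against 1 to 5. Of the other cytotoxic markers Gzmc, Gzmk, Cd8a and Ncr1 had no count, while Nkg7, the most abundant, had 94.2 and 133 CPM in KO and 99.0 and 64.8 CPM in WT. The part of such cells in the values of Il1rl1 and Gzmb was not tested, and in bulk samples fewer cells of a type and less RNA per cell cannot be told apart.

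**Figure D3:**
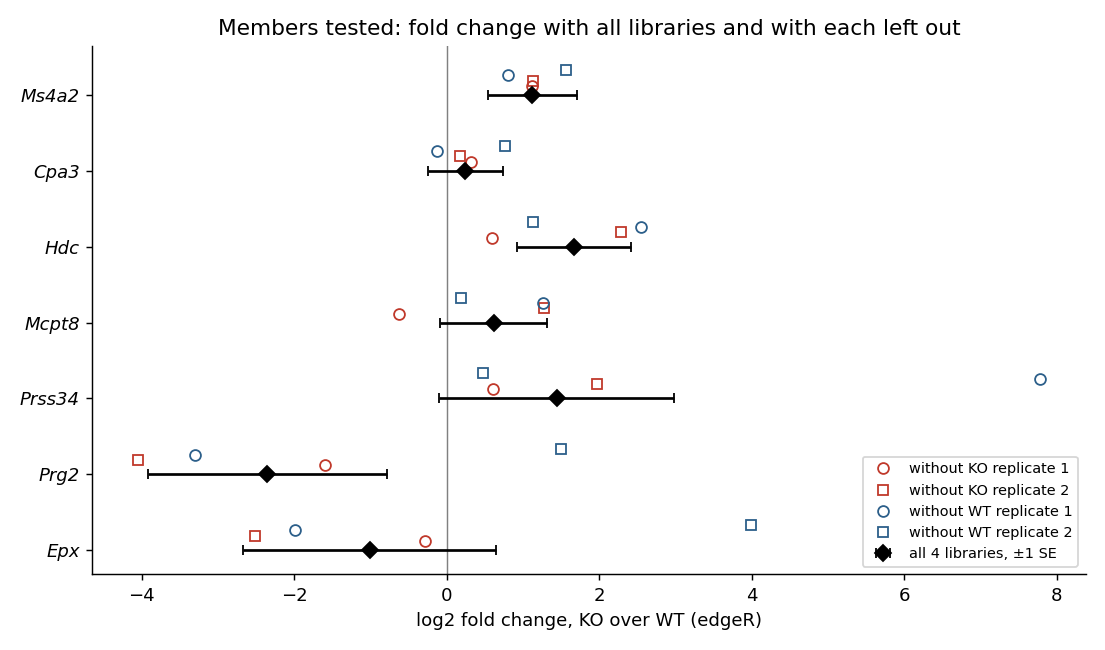
Log2 fold change of KO over WT by edgeR for the 7 genes tested, with all 4 libraries (black diamonds, bars of 1 SE) and with each library left out (open symbols). Ms4a2, Hdc and Prss34 stay above 0 in each fit (for Prss34 without WT replicate 1, against a library with 0 counts), while Prg2 and Epx turn to above 0 without WT replicate 2, Mcpt8 to below 0 without KO replicate 1 and Cpa3 to below 0 without WT replicate 1.

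Between replicates, Mcpt8, Prss34 and Hdc were higher in replicate 1 of both groups, as were Fcer1a and Il1rl1 at low counts, and Cpa3, Prg2 and Epx were higher in replicate 2 of both. These are 3 and 3 of the 7 tested, while 29.5% of all tested genes were higher in replicate 1 of both groups and 28.6% in replicate 2. Ms4a2 alone of the 7 followed neither order. Of 11071 named genes with a mean of at least 1 CPM and outside every list, those nearest to a member in centred log2 CPM over the 4 libraries were Wls for Cpa3 (root mean square difference 0.025), Kalrn for Ms4a2 (0.028), Mss51 for Mcpt8 (0.043), Scnn1a for Prss34 (0.16), Dse for Hdc (0.17), Tarm1 for Epx (0.24) and Col6a6 for Prg2 (0.28). With 4 libraries and so many candidates a near match is common.

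In 7 further lists of mast cell, basophil and eosinophil biology, 69 of 99 distinct genes were tested, 0 passed edgeR and DESeq2 called 0 as higher and 4 as lower, where it called 1.26% of all genes as higher and 0.859% as lower. The 4 were Ikzf2 itself, Lat2, Zfpm1 and Gata2. Of the 69 genes, 41 were above 0 and 28 below, where 49.5% of all tested genes were above 0. In both KO libraries 16 of the 69 were higher and 11 lower, against 18.1% and 19.1% of all tested genes. The median log2 fold change of the 69 was 0.17. Of 17 FceRI signalling genes, 17 were tested and 13 were above 0 (median 0.24). Lat2, an adaptor phosphorylated downstream of FceRI, fell by DESeq2, to 84.1 and 104 CPM in KO against 171 and 268 CPM in WT (log2 fold change -1.22 by edgeR, SE 0.29; adjusted p = 0.0266 by DESeq2 and 0.444 by edgeR). DESeq2 called Lat2 without KO replicate 2 (adjusted p = 0.0327) and lost it without KO replicate 1 (0.302), WT replicate 1 (0.0882) and WT replicate 2 (0.766). Without WT replicate 2 its DESeq2 log2 fold change was -0.85. Of 17 cytokine receptor and signalling genes, 16 were tested, 8 were above 0 and 8 below, and DESeq2 called 0. The most abundant were Csf2ra, the GM-CSF receptor alpha chain (381 and 583 CPM in KO, 649 and 539 CPM in WT), and Kit. Il3ra, the receptor chain for IL-3, the main growth factor of basophils, was singled out after its values were seen: it had 49.0 and 51.5 CPM in KO and 130 and 83.3 CPM in WT (log2 fold change -1.09, SE 0.27, adjusted p = 0.444 by edgeR and 0.0632 by DESeq2).

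Of 16 lineage transcription factors 14 were tested, with 8 above 0, and DESeq2 called 3 as lower, Ikzf2 among them. Gata2, which mast cells and basophils need, fell by DESeq2 to 14.0 and 49.3 CPM in KO, against 74.4 and 234 CPM in WT (log2 fold change -2.28 by edgeR, SE 0.81; adjusted p = 0.0459 by DESeq2 and 0.598 by edgeR). Zfpm1, the GATA cofactor FOG1, fell by DESeq2 to 2.54 and 5.99 CPM in KO, against 11.9 and 32.5 CPM in WT (log2 fold change -2.38 by edgeR, SE 0.69; adjusted p = 0.0266 by DESeq2). DESeq2 lost Gata2 without KO replicate 1 (adjusted p = 0.375) and WT replicate 2 (0.787), and Zfpm1 without the same 2 libraries (0.398 and 0.858). Leaving out WT replicate 2 brought the DESeq2 log2 fold change to -1.22 for Gata2 and -1.47 for Zfpm1, leaving out KO replicate 1 brought it to -1.64 and -1.88, and leaving out KO replicate 2 brought it to -3.46 and -3.13. Both factors had their highest level in WT replicate 2, as Prg2 and Epx did. They were low in the KO libraries, where Ms4a2 and Hdc were high. Gata1, which eosinophils need, had 0 and 1 counts in KO and 8 and 2 counts in WT. Mitf, a factor of mast cells, was at 2.72 and 1.59 CPM in KO and 2.45 and 1.96 CPM in WT, and Cebpa, which basophils and eosinophils need, at 85.2 and 64.1 CPM in KO and 86.6 and 62.8 CPM in WT.

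Of 13 mast cell granule genes 4 were tested and of 7 mast cell surface genes 3, with medians of 0.37 and 0.22. The most abundant were Srgn, the granule proteoglycan core of many myeloid cells (2920 and 1360 CPM in KO, 1200 and 1380 CPM in WT), Ctsg, cathepsin G, which neutrophil precursors also make (1790 and 1220 CPM in KO, 2120 and 894 CPM in WT), Cd33 (390 and 943 CPM in KO, 677 and 465 CPM in WT) and Cd63 (284 and 173 CPM in KO, 232 and 244 CPM in WT). None of these 4 is restricted to mast cells. Of 18 basophil genes 13 were tested, with 7 above 0 and a median of 0.20. The most abundant were Alox5ap, an activator of leukotriene synthesis (649 and 584 CPM in KO, 502 and 412 CPM in WT), and Ms4a3, a gene of granulocyte-monocyte progenitors (620 and 729 CPM in KO, 171 and 517 CPM in WT). The cytokine gene Il13 had no count, and Cd200r3, a surface receptor of basophils, had 5 and 5 counts in KO and 10 and 27 counts in WT. Of 12 eosinophil genes 11 were listed and 3 tested, with a median of -0.29. The most abundant were Adgre1, the antigen F4/80 (65.0 and 97.0 CPM in KO, 75.5 and 122 CPM in WT), and Siglecf (67.7 and 36.6 CPM in KO, 35.9 and 64.5 CPM in WT).

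**Figure D4:**
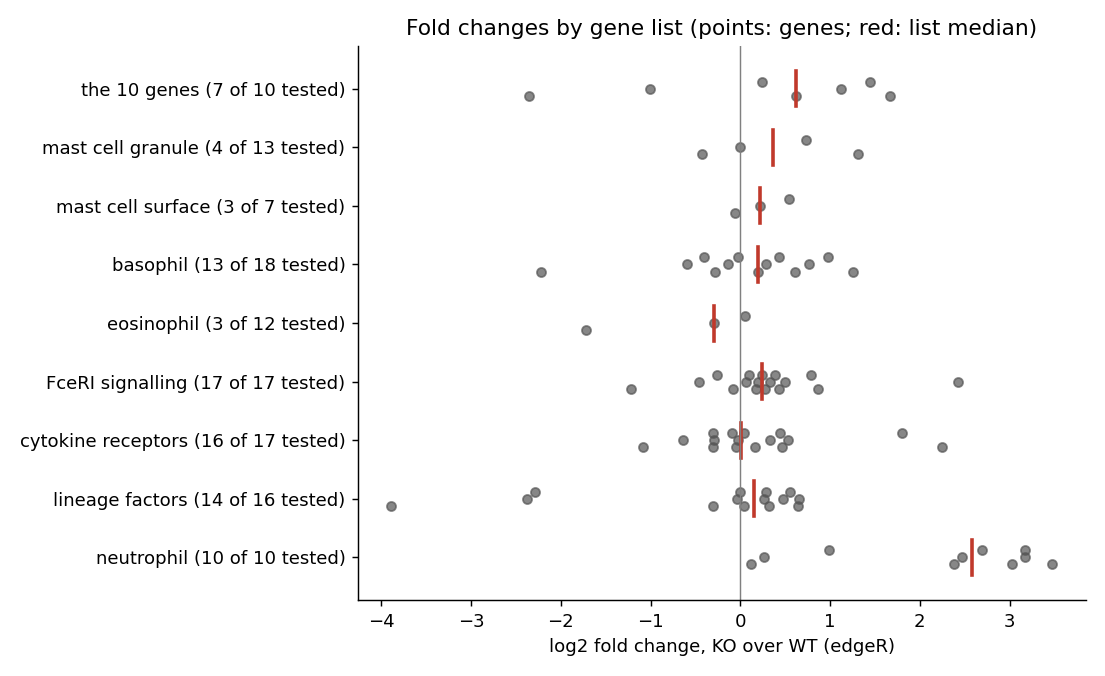
Log2 fold change of KO over WT by edgeR for each tested gene of the 10 genes, of the 7 further lists and of 10 neutrophil markers (points), with the list median (red line). The 10 genes spread from -2.35 to 1.67 around a median of 0.62, while the neutrophil markers all lie above 0 with a median of 2.58.

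Markers of other cell types were read beside these values. Of 10 neutrophil markers, 10 were tested and 10 were above 0 (49.5% of all tested genes). Their summed level was 21400 and 28800 CPM in KO against 1170 and 5710 CPM in WT. Both KO libraries lay above both WT libraries for 7 (18.1% of all tested genes), while Mmp8, Mmp9 and Retnlg overlapped. DESeq2 called 5 as higher (1.26% of all genes with a count), and none of these calls held in every fit without a library. Of 12 cytotoxic lymphoid markers 2 were tested, with a sum of 99.9 and 135 CPM in KO and 99.6 and 66.1 CPM in WT, nearly all of it from Nkg7. Of 7 markers of group 2 innate lymphoid cells 3 were tested, with a sum of 5.13 and 13.5 CPM in KO and 22.1 and 10.8 CPM in WT, and Gata3, which defines them, had at most 0.0619 CPM in any library. Thy1 fell by DESeq2 (adjusted p = 0.00477), to 0.309 and 0.176 CPM in KO against 9.95 and 1.75 CPM in WT. DESeq2 kept that call without WT replicate 2 (adjusted p = 2.63e-04) and lost it without KO replicates 1 and 2 (0.0824 and 0.102) and WT replicate 1 (1.0). Its DESeq2 log2 fold change was -5.04 and -4.24 without KO replicates 1 and 2 and -2.85 without WT replicate 1. Of 6 plasmacytoid dendritic markers 2 were tested, with a sum of 93.4 and 134 CPM in KO and 400 and 36.5 CPM in WT, most of it from Tcf4. Spib, with 24 and 9 counts in KO and 0 and 1 in WT, was not tested. Siglech, with 12 and 2 counts in KO and 0 and 0 in WT, was not tested either. Irf7 was lower in both KO libraries, and Tcf4, Ly6d and Ccr9 overlapped. Of 9 erythroid and megakaryocyte markers 4 were tested, with a sum of 20.5 and 46.5 CPM in KO and 31.2 and 127 CPM in WT, the last mainly from Itga2b, and Hba-a1 and Hbb-bs had no count. Of the 7 markers of the sorted leukemic cells, which include Hoxa9, Meis1 and Ptprc, 7 were tested, none was at 0 and their sum was 1850 and 2690 CPM in KO and 2290 and 2400 CPM in WT. The part of other cells in the values of the 10 genes was not tested.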

How the data were processed

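RNA-seq libraries of 2 KO and 2 WT samples were grouped by their titles; the 4 ATAC-seq samples were not analysed here. The authors deposited a file of raw read counts by gene symbol for each library, with 5 closing rows that name no gene. The submitters' processing notes list MACS2, Picard, HTSeq, STAR 2.3.0 and Bowtie2 2.2.5 and the build mm10. Their roles, the annotation and the strand setting are not given in the sources used, so antisense and overlapping genes cannot be told apart. The closing rows, 69.3% to 72.4% of each file's total, were left out.

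In R 4.3.3, edgeR 4.0.16 compared KO with WT over 12623 genes kept by filterByExpr, by the robust quasi-likelihood F-test with TMM factors, no covariate and Benjamini-Hochberg adjustment over all tested genes at 0.05. The SE is the fold change's size over the square root of F. "Fell" and "rose" refer to genes past the named test. DESeq2 1.42.0 on 16651 genes, limma 3.58.1 (voom), other scalings and filters, a prior count of 2 and fits without each library were alternatives, and the edgeR, DESeq2 and voom fits were tested on simulated data. Replicates differed beyond counting noise (chi-square per degree of freedom 91.1 in KO, 68.1 in WT). Levels were not compared between genes, since no transcript lengths were used; intervals and floors cover counting error only.

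The members and lists were chosen with earlier results of these data known. Named genes were the 10 members, Ikzf2, the members of each further list called by DESeq2 or, with none, its 2 of highest mean CPM, and Gata1, Gata2, Mitf, Cebpa, Fcer1g and Kit. Other genes of the lists, among them those named for having few or no counts, were chosen after their values were seen. Coordinates and promoter windows are RefSeq's, GRCm38.p6, the assembly that mm10 names.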

Additional observations from a re-analysis of the deposited data

How the results depend on the processing

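The edgeR count of 0 calls among the 10 genes held under 11 of 11 alternatives, and the call of a member by DESeq2 appeared only in fits, added after seeing the data, that left a library out (0 to 2 calls, the 2 being Prg2 and Hdc without WT replicate 1). Over all genes edgeR called 4 with no filter on low counts, DESeq2 called 352, and fits without a library gave 0 to 156. Over the further lists DESeq2 called 4 genes with all libraries, and the edgeR count of 0 likewise moved without either WT library. Members whose groups did not overlap numbered 1 of 7 with library sizes alone and 4 of 10 with no filter. The share of all genes was not taken in these settings. Without a library a lone library faces 2 and groups separate more easily, so no such count is read here. The members' median ran from 0.32 to 1.14 without a library, over the 7 to 9 members that passed the filter in each fit. The fold change turned to -0.13 for Cpa3 without WT replicate 1, to -0.62 for Mcpt8 without KO replicate 1, to 1.50 for Prg2 and 3.99 for Epx without WT replicate 2, and to 0.52 for Epx with voom. Over the 4 fits without a library it ran from -0.13 to 0.77 for Cpa3, from -0.62 to 1.27 for Mcpt8, from -4.05 to 1.50 for Prg2 and from -2.51 to 3.99 for Epx. In such fits the spread of a lone library was taken from the other group.

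With the replicate number as a block, edgeR called 11 genes in all, 1 of them in the further lists (Gata2, adjusted p = 0.0341) and 0 members. The numbers are those of the sample titles, the names of the deposited files number the libraries otherwise, and no source used here ties the same number in KO and WT to a shared mouse or batch: replicate differences in KO and WT correlated at 0.191 over tested genes, and 2 pairs cannot show a pairing. Depth limits Fcer1a, Gzmb, Il1rl1, Epx and Prss34, whose counts reached 0 to 8 in at least 1 library of a group.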
